A study of Mus musculus with 12 samples.

Results

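The serpins are a family of protease inhibitors, and their transcripts were compared here between 2 kinds of experimental mouse glioma, pEGFR-Hi and pEGFR-Lo. Members were the genes whose symbol begins with Serpin followed by a letter and digits, measured by a probe set paired with that symbol alone; Serpina3n, Serpinh1 and Serping1 were not included. This gave 45 of the 19938 genes measured. Of 66 mouse symbols in the RefSeq annotation that fit the same pattern, the rest were not analysed here, and 5 probe sets that carry several symbols with a serpin among them were not used. Both tumor lines came from neural progenitors that had been taken out of the subventricular zone of mice without Ink4a/Arf, and were transduced with EGFRvIII, a truncated human EGF receptor that signals without ligand. The pEGFR-Hi line has high and the pEGFR-Lo line low phosphorylation of that receptor, and each had been passaged through mice as intracranial tumors. FVB mice received 2 µl of either line in the brain at 200000 cells per µl; no age is given for the hosts. Brains were taken at the median survival of each group, which came later for pEGFR-Lo, so tumor line and time since injection cannot be told apart. Each group of 6 mice came from 1 line, and the p-values therefore describe spread among mice and not among lines. ZsGreen-tagged living tumor cells were sorted from dissociated brains after removal of myelin and red blood cells, and their RNA was hybridised to 1 Affymetrix array per mouse.

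A serpin inhibits by offering a protease an exposed loop as bait. When the protease cleaves the loop, the serpin snaps into a more stable form and carries the bound protease with it, so that each inhibitor molecule is used once. The family is divided into clades marked by the letter of the symbol. Clade A holds plasma proteins such as the antitrypsins and several hormone carriers. Clade B holds inhibitors that lack a classical secretion signal and mostly act inside cells. The other clades with members here, C, D, E, F and I, hold mostly secreted regulators of coagulation, fibrinolysis and neural proteases. Some members have lost inhibition and act in other ways. In brain the secreted serpins are known as regulators of plasminogen activators, thrombin and vessel growth.

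The promoters of Serpinb6a and Serpinb5, the 2 serpins whose groups did not overlap, are shown as the sequence context of the transcripts measured. They are RefSeq windows on build GRCm38.p6 that run 5′ to 3′ on the gene's strand across an annotated start site, and 39 of the 45 members had at least 1. Serpinb6a has 2 annotated starts on the minus strand of chromosome 13, at chr13:34002745-34003044 and chr13:33936034-33936333; the first of these holds 25 CpG, more than 81.6% of all windows, and the second 5. Serpinb5 lies on the plus strand at chr1:106860925-106861224, with 7 CpG. In capitals are the letters TTCNNNGAA, which STAT factors bind, GGGCGG, the GC box of Sp factors, and TGANTCA, which AP-1 factors bind, on either strand.
Serpinb6a, chr13:34002745-34003044: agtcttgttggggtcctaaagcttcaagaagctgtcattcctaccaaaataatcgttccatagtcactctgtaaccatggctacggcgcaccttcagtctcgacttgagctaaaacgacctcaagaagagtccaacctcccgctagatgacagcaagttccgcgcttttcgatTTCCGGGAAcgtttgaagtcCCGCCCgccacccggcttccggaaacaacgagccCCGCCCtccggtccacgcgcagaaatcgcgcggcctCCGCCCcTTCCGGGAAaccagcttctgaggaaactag
Serpinb5, chr1:106860925-106861224: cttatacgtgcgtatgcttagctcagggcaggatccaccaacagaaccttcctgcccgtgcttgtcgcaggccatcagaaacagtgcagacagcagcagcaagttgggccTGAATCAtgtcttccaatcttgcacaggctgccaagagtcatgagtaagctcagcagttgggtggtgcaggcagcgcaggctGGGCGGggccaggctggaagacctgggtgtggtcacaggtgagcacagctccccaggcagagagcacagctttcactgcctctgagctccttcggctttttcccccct
The Serpinb6a window holds 2 matches of TTCNNNGAA, 3 of GGGCGG and none of TGANTCA, and the Serpinb5 window 1 of GGGCGG and 1 of TGANTCA. A match of TTCNNNGAA is found in 8.30% of all 32851 windows (at least 2 matches in 0.457%), one of GGGCGG in 35.7% (at least 2 in 19.5%) and one of TGANTCA in 7.81%. In all 6 motifs were searched, chosen with the sequences in view, so these shares do not measure how unusual the matches are. The others were CCGGAA (14.9% of windows, at least 2 matches in 3.59%), TATAAA (13.6%) and the core of the interferon-stimulated response element (3.44%). The same Serpinb6a window has 4 matches of CCGGAA and 1 of the interferon element, some of which overlap the capitals. The other Serpinb6a window and the single window of Serpinf1 had 0 matches of any of the 6. These are matches of letters only, no binding was measured, and the arrays do not tell which start was used.

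Expression is given as log2 values after RMA, a normalization that gives all arrays one distribution. Group differences were taken between mice for 1 gene. The background level, the order of members and the ranks of spread set different genes side by side, and there differences between probes also enter. Olfactory receptor genes stood in for genes that these cells do not use: the 95th percentile of their means, 4.10 on the log2 scale, was taken as background. Calls needed an adjusted p under 0.01 in limma and a change of 2-fold or more, and 9.05% of all genes met both, 3.99% as higher and 5.06% as lower in pEGFR-Hi. Array medians lay between 4.81 and 4.88. Replicates 3 and 6 of pEGFR-Lo stood apart in interferon-stimulated genes, with a mean log2 value of 5.40 and 5.33 over 28 of 33 listed genes, while the other four pEGFR-Lo mice had 6.91, 7.03, 6.92 and 6.55. All 8 neural progenitor markers were above background in both groups, and of these Fabp7 was called lower in pEGFR-Hi and the other 7 were not called. Of the markers of other cells, 2 of 8 in endothelium, 1 of 5 in mature oligodendrocytes, 4 of 8 in neurons, 3 of 9 in T and NK cells, 2 of 8 in neutrophils and mast cells, 5 of 8 in pericytes and fibroblasts, 6 of 9 in microglia and macrophages and 7 of 8 in astrocytes lay above background. In the microglia and macrophage list, Aif1, Csf1r and Itgam lay below background, and Cx3cr1, P2ry12, Tmem119, Cd68, C1qa and Trem2 above it. The microglial list averaged between 4.30 and 4.58 in pEGFR-Hi mice and between 4.33 and 4.75 in pEGFR-Lo mice, with Cd68 called higher and P2ry12 lower in pEGFR-Hi. The pericyte and fibroblast list averaged between 3.92 and 4.26 in pEGFR-Hi and between 4.14 and 4.68 in pEGFR-Lo, with Rgs5 called lower. In the astrocyte list Gfap was called higher and Gja1, Slc1a2 and Slc1a3 lower, in the neutrophil and mast cell list Kit was called lower. With limma and with SAM 0 genes were called in endothelium (1 higher and 1 lower at an unadjusted p under 0.05), neurons (0 and 4), T and NK cells (0 and 0) and mature oligodendrocytes (0 and 0). The part of other cell types in the serpin values was not tested.

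Of the 45 serpins, 6 had a mean over all 12 arrays above background: Serpinb6a, Serpinb8, Serpind1, Serpine3, Serpinf1 and Serpinf2. Among these 1 was called higher in pEGFR-Hi, where 5.77% of all 13519 genes above background were called, and 0 were called lower, where 7.23% were; SAM gave the same counts, and 0 were lower at an unadjusted p under 0.05. A further serpin, Serpinb5, was above background in pEGFR-Lo only and also met the limits of a call, as lower in pEGFR-Hi, so that 1 of all 45 was called higher and 1 lower. The groups did not overlap in 2 of the 45 members, Serpinb6a and Serpinb5, and in 23.3% of all genes. The median log2 difference, pEGFR-Hi minus pEGFR-Lo, was 0.14 over the 6 members, 0.13 with Serpinb8 at its bound, and 0.03 over all genes above background. The other 38 members lay at background in both groups. They include all 14 members of clade A, among them the antitrypsins Serpina1c, Serpina1d and Serpina1f and the hormone carriers Serpina6 and Serpina7. They also include antithrombin (Serpinc1), neuroserpin (Serpini1), which inhibits tissue plasminogen activator in neurons, and Serpinb9, the inhibitor of granzyme B. In clade B, 2 of 24 members were above background. No fold is given for the 38, whose largest absolute log2 difference was 0.34 and of which 0 had an adjusted p under 0.01 in limma or were called by SAM, with 1 higher and 1 lower at an unadjusted p under 0.05. With Serpinb8 at 4.26 and 3.95 in pEGFR-Hi and pEGFR-Lo and Serpind1 at 4.22 and 4.11 just above the background level, the nearest below it were Serpinb9 at 3.81 and 3.81, Serpinc1 at 3.69 and 3.90 and Serpina11 at 3.74 and 3.77.

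**Figure D1:**
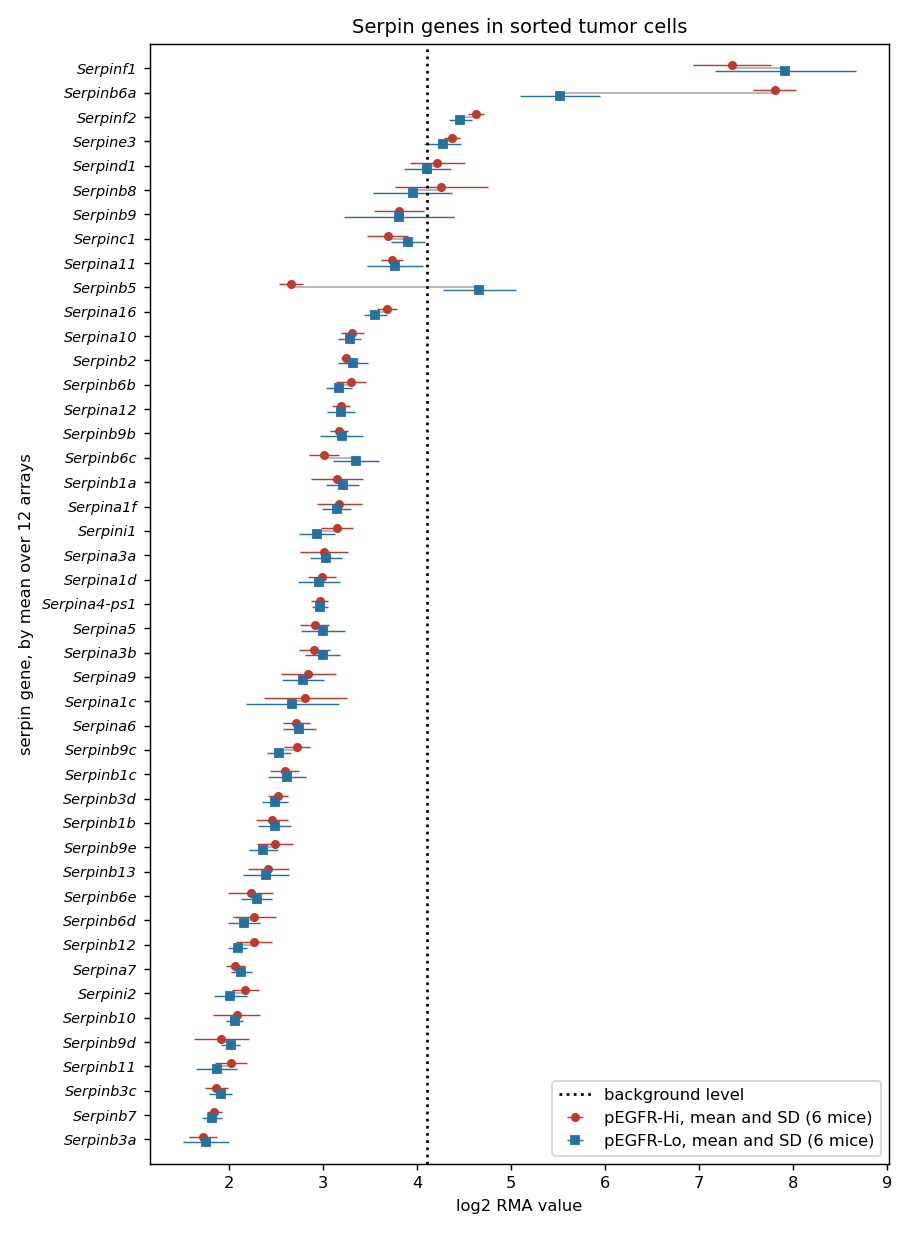
Mean log2 RMA value and SD of all 45 serpins in pEGFR-Hi (circles) and pEGFR-Lo (squares), 6 mice each, ordered by the mean over the 12 arrays; the dotted line is the background level of 4.10. Most serpins lie left of the line with both groups together, and the groups of Serpinb6a and Serpinb5 stand apart, with pEGFR-Hi on the background side for Serpinb5.

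Serpinb6a was the serpin with the largest rise in pEGFR-Hi. It encodes an intracellular inhibitor of trypsin-like proteases and of cathepsin G, and loss of its human counterpart causes hearing loss. Its lowest, median and highest log2 values were 7.49, 7.77 and 8.18 in pEGFR-Hi mice and 4.97, 5.68 and 5.99 in pEGFR-Lo mice. Every pEGFR-Hi mouse was above every pEGFR-Lo mouse, and all 12 mice were above background. Such separation in this direction was seen in 12.2% of all genes. The means were 7.80 ± 0.23 in pEGFR-Hi and 5.52 ± 0.42 in pEGFR-Lo (SD, n = 6 each), a log2 difference of 2.28 (SE 0.17, 95% interval 1.92 to 2.64) or 4.86-fold, with an adjusted p of 2.45e-08 in limma. Leaving out 1 mouse at a time gave between 2.17 and 2.38, and without pEGFR-Lo replicates 3 and 6 it was 2.36. The spread of pEGFR-Lo mice was wide for a gene above background, at percentile 95.1 of within-group SDs, against percentile 74.4 in pEGFR-Hi.

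Serpinb6a belongs to a cluster of near copies, and probes of one copy can bind transcripts of another. Its relatives Serpinb6b, Serpinb6c, Serpinb6d and Serpinb6e, each with a probe set of its own, were at background in both groups. Binding of their transcripts to the Serpinb6a probes was not tested. The genes beside the serpins were examined after their values were seen. On one side of Serpinb6a, in the order of RefSeq, lie Serpinb6c, Serpinb6e, Serpinb6d, Serpinb9e and Serpinb9d, of which all were at background and none was called. On the other lie Nqo2 and Bphl, with log2 differences of 0.29 and -0.17, then the tubulin genes Tubb2a and Tubb2b and the proteasome assembly gene Psmg4. Tubb2b was called lower in pEGFR-Hi (log2 difference -1.49, adjusted p 7.47e-06 in limma), and Tubb2a had -0.92, under the 2-fold limit. Among these 10 neighbours 1 was called, in the direction opposite to Serpinb6a, where 9.05% of all genes were called in either direction.

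**Figure D2:**
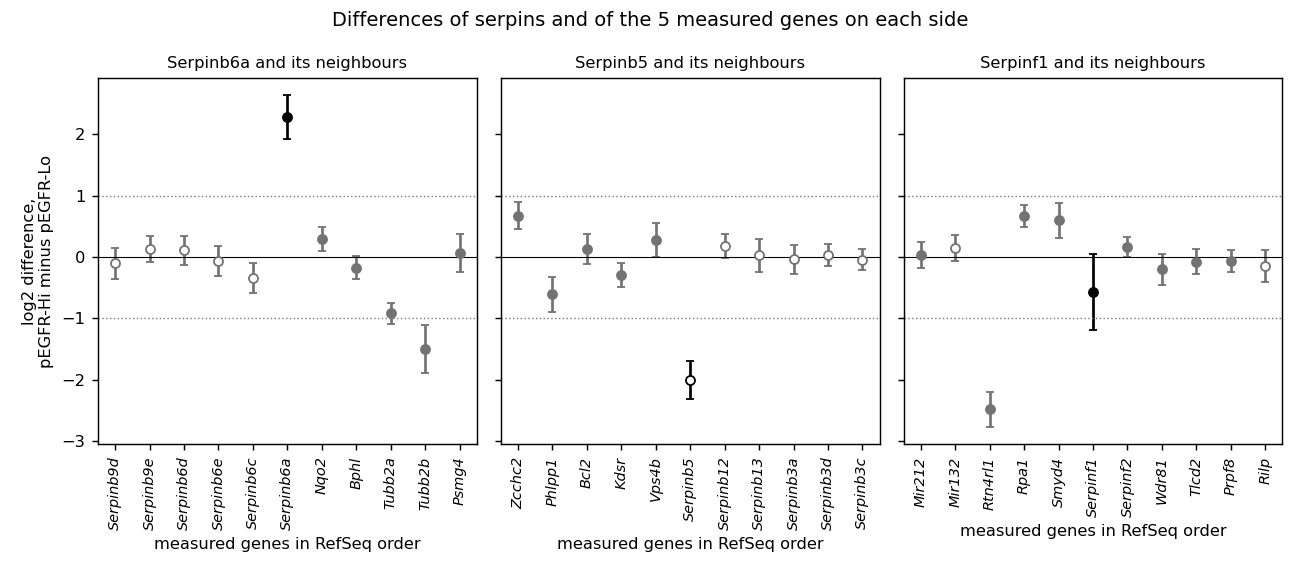
Log2 difference, pEGFR-Hi minus pEGFR-Lo, with its 95% interval for Serpinb6a, Serpinb5 and Serpinf1 (black) and the 5 measured genes on each side in RefSeq order (grey); open points lie at background in the mean, and dotted lines mark 2-fold. Serpinb6a at 2.28 stands above all 10 of its neighbours, no size can be read for the open points, Serpinb5 among them, and Rtn4rl1 near Serpinf1 lies at -2.49.

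Serpinb5, maspin, differed in the other direction. It is known from mammary and other epithelia as a suppressor of invasion and is a clade B member without inhibitory activity. Its lowest, median and highest log2 values were 2.48, 2.66 and 2.84 in pEGFR-Hi mice and 4.23, 4.63 and 5.23 in pEGFR-Lo mice. The groups did not overlap, as in 11.1% of all genes in this direction, and 0 of 6 pEGFR-Hi mice but 6 of 6 pEGFR-Lo mice lay above background. The means were 2.66 ± 0.13 in pEGFR-Hi and 4.66 ± 0.38 in pEGFR-Lo (SD, n = 6 each), and the fitted log2 difference of -2.01 met the limits of a call (adjusted p 2.02e-08 in limma). Because pEGFR-Hi was below background, that difference is no measured size and the fold is a bound, at least 1.47-fold higher in pEGFR-Lo, taken between the pEGFR-Lo mean and the background level. Its mean over all arrays was 3.66, so it was not among the 6 members above background, and it could pass only through the group where it was high. Replicates 3 and 6 of pEGFR-Lo were its highest mice, and without them the fitted difference was -1.80. On either side of Serpinb5 in RefSeq order lie Zcchc2, Phlpp1, the survival gene Bcl2, Kdsr and Vps4b, and the clade B serpins Serpinb12, Serpinb13, Serpinb3a, Serpinb3d and Serpinb3c. None of these 10 was called by limma or SAM, and 2 were higher and 2 lower in pEGFR-Hi at an unadjusted p under 0.05.

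**Figure D3:**
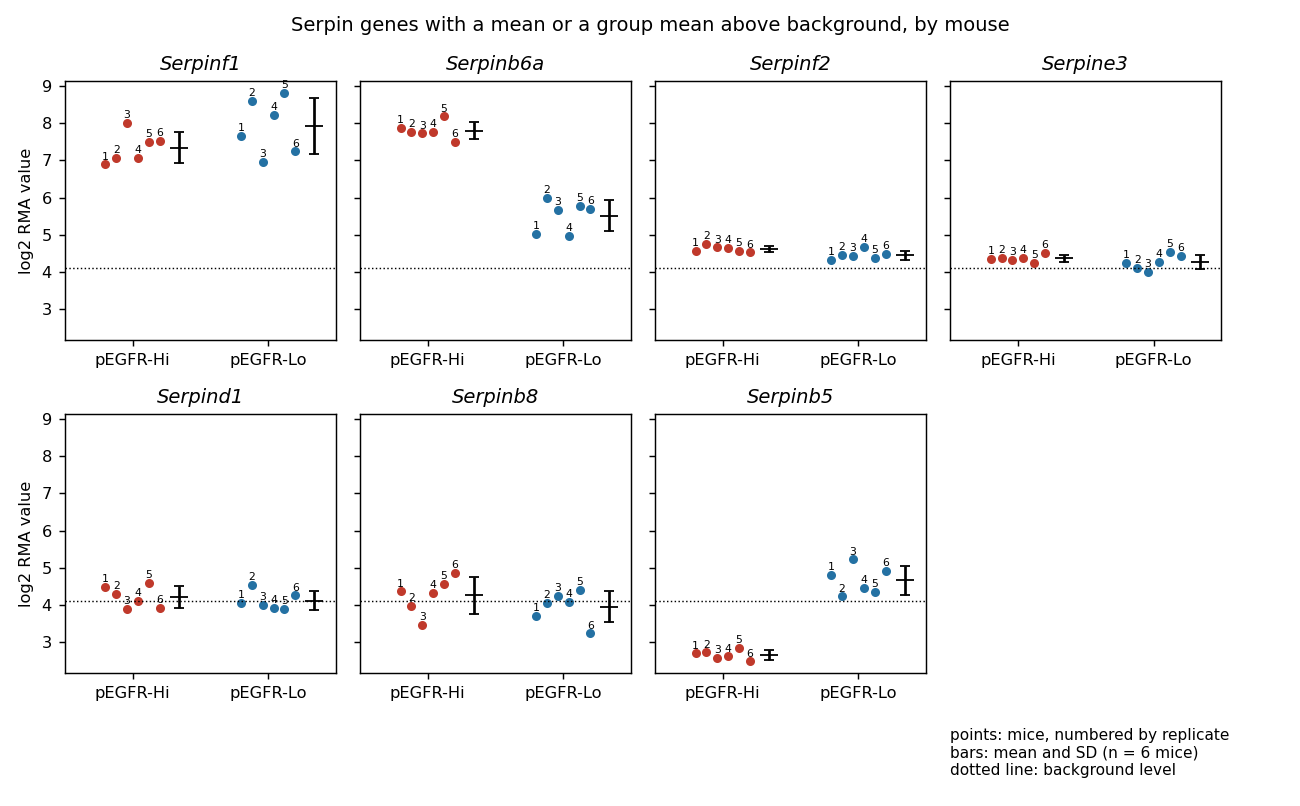
Log2 RMA value of each mouse for the 6 serpins above background and Serpinb5, with the mean and SD of 6 mice and the background level (dotted); numbers are replicates. Serpinb6a and Serpinb5 separate the groups in opposite directions, while the groups overlap in the other five.

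Serpinf1 encodes pigment epithelium-derived factor, a secreted serpin without inhibitory activity that restrains vessel growth and that supports self-renewal of neural stem cells in the mouse subventricular zone. Its lowest, median and highest log2 values were 6.89, 7.29 and 8.02 in pEGFR-Hi mice and 6.96, 7.94 and 8.82 in pEGFR-Lo mice, so the groups overlapped. The log2 difference was -0.57 (95% interval -1.18 to 0.05) with an adjusted p of 0.149 in limma, which leaves room for no difference and for one beyond 2-fold. Its spread among mice was wide in both groups, at percentile 96.6 of genes above background in pEGFR-Hi and 98.9 in pEGFR-Lo. The 2 lowest pEGFR-Lo mice were replicates 3 and 6, at 6.96 and 7.24, the same mice that were low in interferon-stimulated genes. The other four pEGFR-Lo mice had 7.66, 8.60, 8.22 and 8.82. Without replicates 3 and 6 the difference was -0.98 with an adjusted p of 0.00541 in limma, still short of 2-fold and so not called. As these were the 2 lowest pEGFR-Lo mice, leaving them out had to widen the difference, so that p-value is no test of it. Between the groups the interferon list ran the other way: it averaged between 7.82 and 8.98 in pEGFR-Hi and between 5.33 and 7.03 in pEGFR-Lo, and 22 of its 28 genes were called higher and 0 lower in pEGFR-Hi by limma, with 24 and 0 by SAM and 26 and 0 at an unadjusted p under 0.05. Within pEGFR-Hi the lowest mice differed: replicate 1 had the lowest Serpinf1, 6.89, with an interferon mean of 8.41. Replicate 6 of pEGFR-Hi had the lowest interferon mean, 7.82, with Serpinf1 at 7.52. The highest Serpinf1 of pEGFR-Hi, 8.02 in replicate 3, went with an interferon mean of 8.55. In pEGFR-Lo the highest Serpinf1, 8.82 in replicate 5, went with 6.55. The part of interferon-stimulated transcription in the Serpinf1 values was not tested. Of the genes beside Serpinf1, the Nogo receptor relative Rtn4rl1 was called lower in pEGFR-Hi (log2 difference -2.49), and Rpa1 and Smyd4 between them had 0.67 and 0.60.

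**Figure D4:**
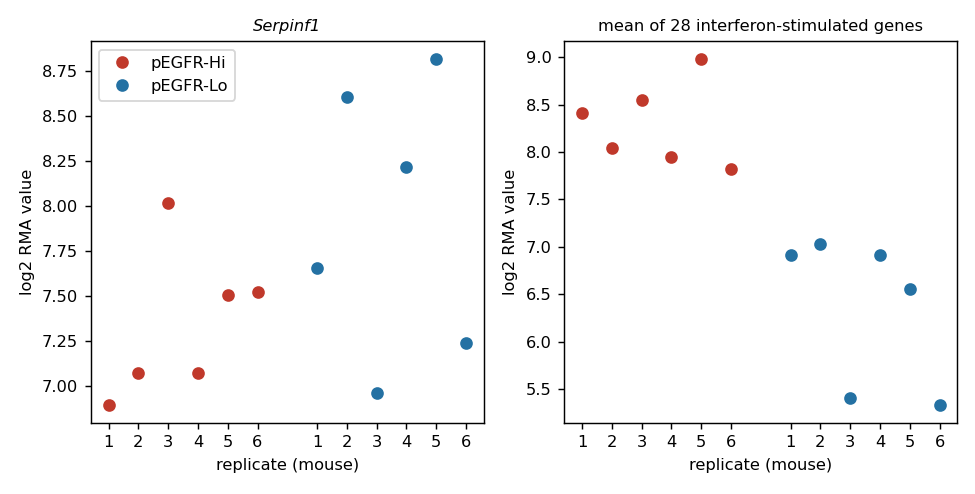
Log2 RMA value of Serpinf1 (left) and the mean log2 value of 28 interferon-stimulated genes (right) by mouse, with 6 mice of pEGFR-Hi and 6 of pEGFR-Lo; the axes do not start at 0. Replicates 3 and 6 of pEGFR-Lo are the lowest of their group in both panels, while the groups overlap for Serpinf1 and do not for the interferon genes. In pEGFR-Hi the lowest mouse is replicate 1 on the left and replicate 6 on the right.

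The other four serpins above background were near it and were not called. Serpinf2, antiplasmin, the main inhibitor of plasmin, averaged 4.62 ± 0.09 in pEGFR-Hi and 4.46 ± 0.12 in pEGFR-Lo (SD, n = 6 each), a log2 difference of 0.16 (95% interval -0.0003 to 0.33, adjusted p 0.118 in limma). Serpine3 averaged 4.37 in pEGFR-Hi and 4.27 in pEGFR-Lo, with a difference of 0.10 and an interval of -0.10 to 0.29. Both intervals stay within 2-fold for the array values, but so near the background level they do not bound the change in transcript. Serpind1, heparin cofactor II, which inhibits thrombin, averaged 4.22 in pEGFR-Hi and 4.11 in pEGFR-Lo, with 3 and 2 mice above background. Serpinb8, an intracellular serpin whose human counterpart inhibits furin, averaged 4.26 ± 0.49 in pEGFR-Hi and 3.95 ± 0.42 in pEGFR-Lo (SD, n = 6 each), with 4 and 2 mice above background. Its pEGFR-Lo mean was below the background level, so the fold between its means is a bound too, 1.11-fold or more. The 95% interval of its log2 difference, -0.17 to 0.78, includes no difference, so no direction is settled. Serpinb8 was not called (adjusted p 0.334 in limma).

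The proteases that serpins act on, their receptors and inhibitors of other families were described from lists. Beside the counts in each list stand the shares over all genes, 3.99% called higher and 5.06% lower in pEGFR-Hi. In the plasminogen list, 2 of 13 measured genes were called higher and 2 lower in pEGFR-Hi, with a median log2 difference of -0.03 against 0.01 over all genes. The urokinase receptor Plaur had 7.82 ± 0.83 in pEGFR-Hi and 6.23 ± 0.32 in pEGFR-Lo (SD, n = 6 each), a log2 difference of 1.60 (adjusted p 4.59e-04 in limma). S100a10, part of a plasminogen receptor at the cell surface, differed by 1.90 (adjusted p 2.33e-06 in limma). For both, every pEGFR-Hi mouse was above every pEGFR-Lo mouse, as in 12.2% of all genes. A pair of receptors of the LDL receptor family were lower in pEGFR-Hi: Lrp1, which clears complexes of serpins with their proteases, by a log2 difference of -1.16, and Sorl1 by -1.73. The activators themselves were not called. Plat, tissue plasminogen activator, averaged 8.81 in pEGFR-Hi and 9.13 in pEGFR-Lo (adjusted p 0.0788 in limma), and urokinase (Plau) and plasminogen (Plg) were at background in both groups.

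Among 21 measured genes of coagulation, tissue factor (F3) was the only gene called by limma or SAM (3 were higher and 2 lower at an unadjusted p under 0.05), at 5.61 ± 0.18 in pEGFR-Hi and 6.81 ± 0.07 in pEGFR-Lo (SD, n = 6 each), and the list's median difference was -0.03. Prothrombin (F2) was at background, and the thrombin receptor F2r averaged 9.39 in pEGFR-Hi and 9.66 in pEGFR-Lo, below the 2-fold limit. Of 18 granzymes and granule proteases of leukocytes 0 were called by limma or SAM, with 1 higher and 1 lower at an unadjusted p under 0.05. Gzmb, the target of Serpinb9, and Ctsg, a target of the Serpinb6a product, were at background in both groups. In 17 cathepsins and inflammatory caspases, Ctsh (log2 difference 1.10) and Casp4 (1.38) were called higher and 0 lower by limma and SAM, with 3 higher and 4 lower at an unadjusted p under 0.05. Ctsh averaged 4.22 in pEGFR-Lo, near the background level, with 4 of 6 mice above it. The Casp4 difference was 0.97 without pEGFR-Lo replicates 3 and 6, under the 2-fold limit. Ctsl at -0.44, Ctsc at -0.99, Ctsd at -0.75 and Ctsz at 0.52 passed the p limit but not the fold limit, and were not called. Of 36 kallikreins, HtrA, Prss, Pcsk and membrane serine proteases 0 were called higher and 3 lower by limma and SAM, with 1 higher and 7 lower at an unadjusted p under 0.05. The called genes were Klk8, a brain serine protease of the kallikrein family, at -1.13, Prss23 at -1.20 and Prss35 at -1.60. Their pEGFR-Hi means of 4.17, 4.41 and 4.36 lay near the background level of 4.10, with 3, 6 and 5 of 6 mice above it. Klk8 was under the 2-fold limit without pEGFR-Lo replicate 6, at -0.96.

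Protease inhibitors of other families went both ways, with 4 of 38 called higher, 4 lower and a median difference of -0.04. The higher genes were A2m, a trap for many proteases, Cast, the calpain inhibitor calpastatin, Fetub, a cystatin-fold inhibitor of astacin proteases, and Spint1, a Kunitz inhibitor of matriptase. A2m stood at 9.59 ± 0.76 in pEGFR-Hi and 4.92 ± 0.27 in pEGFR-Lo (SD, n = 6 each), a log2 difference of 4.67. Cast differed by 2.78 and Fetub by 2.75. Fetub averaged 4.54 in pEGFR-Lo, near the background level, with 4 of 6 mice above it. Spint1, at 1.08, was under the 2-fold limit without pEGFR-Hi replicate 4 (0.98), pEGFR-Hi replicate 6 (0.999) or pEGFR-Lo replicate 3 (0.99). The lower genes were Tfpi, the Kunitz inhibitor of tissue factor, at -1.08, and the metalloprotease inhibitors Timp2 at -2.77, Timp3 at -2.11 and Timp4 at -2.69. The metalloprotease inhibitors Timp1, at 0.75, and Reck, at 0.39, went the other way. Both passed the p limit but not the fold limit, and were not called. Tissue factor and its inhibitor Tfpi were both lower in pEGFR-Hi.

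**Figure D5:**
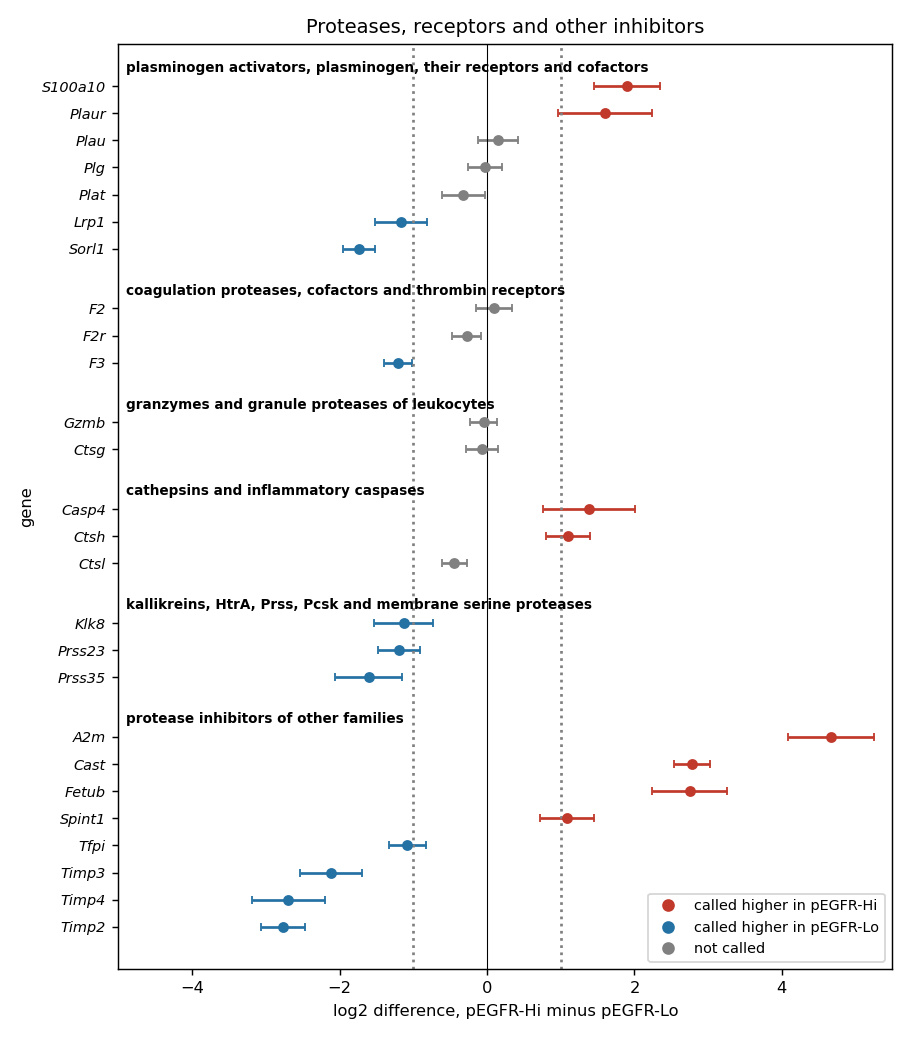
Log2 difference, pEGFR-Hi minus pEGFR-Lo, with its 95% interval for genes named from the lists of proteases, receptors and other inhibitors; colors give the call and dotted lines mark 2-fold. A2m lies farthest to the right at 4.67 and Timp2 farthest to the left at -2.77, while Plat, Plau and Plg lie near 0.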

How the data were processed

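RNA of sorted tumor cells from 6 pEGFR-Hi and 6 pEGFR-Lo mice was measured on Affymetrix Mouse Gene 1.0 ST arrays. The authors deposited log2 values made with RMA in Affymetrix Expression Console, with no version stated. Equal distributions across arrays hide a change in total RNA. Of 35556 probe sets, 21789 had 1 symbol in the platform annotation, 1621 several and 12146 none. Symbols of 21698 were matched by Entrez ID to RefSeq (GRCm38.p6). The array's build is not given, so RefSeq served for names, gene order and promoter windows. For 999 genes with several probe sets the one with the highest mean was used. The table held 0 columns of other samples. The labels give no batch.

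The fit over all 19938 genes used limma 3.58.1 with lmFit followed by eBayes (R 4.3.3; data.table, version 1.17.8; figures in matplotlib 3.10.9, Python 3.11.15), with Benjamini-Hochberg adjustment over all genes and calls at adjusted p under 0.01 and 2-fold. The background level was the value that 95% of 1027 olfactory receptor genes did not exceed in their means. Alternatives were SAM, as in the study's methods, with 100 permutations, other filters, variance models and thresholds, a replicate block, left-out arrays and repeated normalization. The last applied quantile normalization again or centred arrays on their medians, which could move little in values that RMA had already normalized. On simulated arrays with 19938 genes, limma called 96 of 100 genes given a log2 change of 1.5 and 100 of 100 given one of 2, SAM called 97 and 100, and 0 unchanged genes were called. The simulated noise was normal, independent between genes and of the same SD in both groups. It held no correlation between genes and no subset of mice that stood apart, so it checks the code and not the error rate here.

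Serpins above background were named with values, and those at background without, except the 3 nearest to the level and Serpinb5, which was above background in 1 group. From each list of proteases, receptors and inhibitors up to 4 called genes per direction with the smallest adjusted p were named, besides Plat, Plau, Plaur, Plg, Lrp1, F2, F2r, Gzmb, Ctsl and Ctsg. Neighbouring genes, and Ctsc, Ctsd, Ctsz, Timp1 and Reck, were named after their values were seen. The members and lists, 6 of proteases and inhibitors, 9 of cell markers and 1 of interferon-stimulated genes, were chosen with earlier results of these data known. The number of arrays limits the precision.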

Additional observations from a re-analysis of the deposited data

Results flagged for a closer look

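In 2 of 74 groups of 6 mice, for 37 named genes, 1 mouse stood apart from the rest by Dixon's criterion, which chance meets in about 1 of 20 groups. F2, which was at background, had 3.84 in pEGFR-Hi replicate 4, and the next highest pEGFR-Hi mouse had 3.41. Rtn4rl1 had 5.07 in pEGFR-Hi replicate 3, and the next highest pEGFR-Hi mouse had 4.56. Neither group of any of the 7 named serpins met the criterion.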

How the results depend on the processing

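Among the 6 serpins above background, 1 was called higher and 0 lower in pEGFR-Hi in all 22 alternatives. All 153 values of these and of Serpinb5, which was called lower, kept their sign and their call. Without pEGFR-Lo replicates 3 and 6, Serpinf1 passed the p limit (adjusted p 0.00541 in limma) but not the fold limit. Those were its 2 lowest pEGFR-Lo mice, so leaving them out had to widen the difference. Of 655 values of 30 other genes followed 641 kept sign and call. With an adjusted p under 0.05 and no fold limit, 3871 genes were higher and 3314 lower, in place of 795 and 1009, since both limits were looser, and of the 37 genes followed 4 uncalled ones (Ctsl, F2r, Tubb2a and Nqo2) then passed; other neighbours of the serpins were not followed. With 1 array left out, 774 to 846 genes were called higher and 991 to 1031 lower. A total of 6 values fell under 2-fold: Casp4 and Klk8 without pEGFR-Lo replicates 3 and 6 (0.97 and -0.92), Klk8 without pEGFR-Lo replicate 6, and Spint1 without any of 3 arrays. Plg and Ctsg, at background, changed sign: Plg, at -0.03 with all mice and between -0.10 and 0.03 with 1 left out, had 0.0045 without pEGFR-Hi replicate 3, 0.012 without pEGFR-Hi replicate 6 and 0.029 without pEGFR-Lo replicate 5, and Ctsg, at -0.07 with all mice, had 0.011 without pEGFR-Lo replicates 3 and 6. The cause was not tested. With the replicate number as a block, Serpinb6a had an adjusted p of 8.04e-07 in limma, Serpinf1 had 0.177, and 801 and 1008 genes were called. Same-numbered arrays of the 2 groups correlated between -0.18 and 0.12 in their deviations, and 1 of 6 correlated best with its own number, so the numbers were not taken to pair the arrays. Genes below 4.10 on the log2 scale have only a bound on their level, which limits what can be said of 38 serpins.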
